A study of Danio rerio with 6 samples.

Results

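The IL-10 family cytokines and their receptor chains were followed in the larval zebrafish gut. The set held 6 transcripts out of the 16134 rows of the count table, chosen by gene identity and not by their values: the 3 cytokine transcripts *il22* (NM_001020792), *il26* (NM_001020799) and *il10* (NM_001020785), and the 3 receptor transcripts *il20ra* (NM_001079676), *crfb4* (NM_001083868) and *il10ra* (NM_001077625). Each gene had 1 row in the table. Earlier results of these data were known when the members and the gene lists below were chosen, so counts over them are descriptions. Wild-type larvae of the AB strain were injected at 5 days post fertilization (dpf) into the gut and swim bladder, either with recombinant zebrafish IL-26 protein (rzIl26) mixed with phenol red, or with bovine serum albumin (BSA) at a matched concentration as the control. Dissection of the gut followed after 1 h, and each RNA-seq library came from a pool of 10 to 15 guts rather than from an individual, with 3 libraries per group. The comparison asks which gut transcripts differ shortly after IL-26 is added, and the members include the gene of the injected cytokine, its relatives and the chains that bind them.

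IL-10 family cytokines are secreted proteins that signal between immune cells and epithelia through pairs of class II cytokine receptor chains. Ligand binding brings the chains together, activates the JAK kinases bound to them and leads mainly to phosphorylation of STAT3, which induces SOCS3 as a feedback inhibitor. In mammals IL-22 is made by lymphocytes and acts on epithelial cells to raise antimicrobial defence and repair, IL-10 restrains inflammation, and IL-26 signals in humans through the chains IL-20RA and IL-10RB, the latter shared with IL-10 and IL-22. The chain IL-10RA gives specificity for IL-10. Work in fish commonly treats the chain encoded by *crfb4* as the counterpart of IL-10RB, but the gene name table used here keeps a separate gene *il10rb*, which had no row under that name, so this pairing was not settled here. In the name table *ifng1*, *ifng1r*, *il26*, *il22* and *mdm1* are successive protein-coding genes on chromosome 4, *il19l* and *il10* are neighbours on chromosome 11, and *il20ra* lies between *med23* and *bub1* on chromosome 20. The genes *crfb4* and *il10ra* lie on chromosomes 9 and 15.

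Quantitative PCR primer pairs designed for 4 of these genes are shown because they are the oligonucleotides by which *il26*, *il22*, *il10* and *il20ra* transcripts are measured at the bench. Each is written 5′ to 3′, and where it lies in its transcript was not examined.
il26 forward: ccataaatccctgccgagaga
il26 reverse: cacgcttgaagtctgggaca
il22 forward: tgcagaatcactgtaaacacga
il22 reverse: ctccccgattgctttgttac
il10 forward: tcacgtcatgaacgagatcc
il10 reverse: cctcttgcatttcaccatatcc
il20ra forward: ggagtacgccatttacgggg
il20ra reverse: acagtggtctgaatctgccg

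The primers were 20 to 22 bases long, and their GC content ranged from 40.9% in the *il22* forward primer to 60.0% in the *il20ra* forward primer. Primers for *crfb4* and *il10ra* were not used here.

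The libraries held 15156164 to 22219894 counts, with 12323 to 12613 of the 16134 rows detected in each. The tissue label was checked against marker genes. All 19 enterocyte markers with a row passed the count filter, and their mean level was 7.94 to 8.24 on the log2 CPM scale over the libraries, although the enterocyte marker *fabp2* stood at only 1.02 ± 0.60 CPM after BSA and 0.740 ± 0.535 CPM after rzIl26 (SD, n = 3). Transcripts of organs attached to the gut were also abundant, with a mean log2 CPM of 7.37 to 9.01 for the 20 liver markers past the filter and of 9.001 to 9.92 for 16 exocrine pancreas markers, and the ranges of both groups overlapped. By library (replicates 1 to 3) the liver mean was 7.59, 8.88 and 7.54 after BSA and 7.37, 8.91 and 9.01 after rzIl26. Liver RNA thus differed widely between pools of the same group, and the high pools were not evenly split between the groups. The defining macrophage transcripts *mpeg1.1*, *c1qa*, *c1qb* and *c1qc* were at 0 in every library. How reads shared between transcripts were counted is not given in the sources used here, so a row at 0 cannot be read as absence of the transcript. The libraries are bulk samples, in which fewer cells of a type and less RNA per cell cannot be told apart.

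None of the members passed the significance threshold in the fit reported here, while 3 of the 4 that could be tested stood apart between the groups in every library after scaling by TMM factors. For *il20ra* and *crfb4*, but not for *il22*, this separation depended on the scaling, as given below. The cytokine transcript *il22* was 2.44-fold higher after rzIl26 by the fitted value (95% interval 1.23 to 4.87). The receptor transcripts *il20ra* and *crfb4* were at 0.776 and 0.737 of their BSA levels, and *il10ra* was at 1.096 times its BSA level (interval 0.74 to 1.62). The transcripts *il26* and *il10* were near the detection limit, with 28 and 17 counts over all 6 libraries, and were too sparse to test. The groups were tested by edgeR's quasi-likelihood method over all 10576 rows that passed a filter on low counts, and a row was called when its p-value, adjusted by the Benjamini-Hochberg method over these rows, was under 0.05. Of all rows tested 18.9% were called, 9.27% higher and 9.60% lower after rzIl26, against 0 of the 4 members tested. The paper reports more genes up and more genes down for this comparison, also by edgeR, and the cause of that difference was not tested. DESeq2, which called 21.0% of its rows, called 2 of the 4, *il22* and *il20ra*. Without adjustment 3 of the 4 members had a p-value under 0.05, against 34.9% of all rows. With TMM scaling the groups did not overlap for these 3, 1 higher and 2 lower, against 39.6% of all rows (18.7% higher and 20.9% lower).

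**Figure D1:**
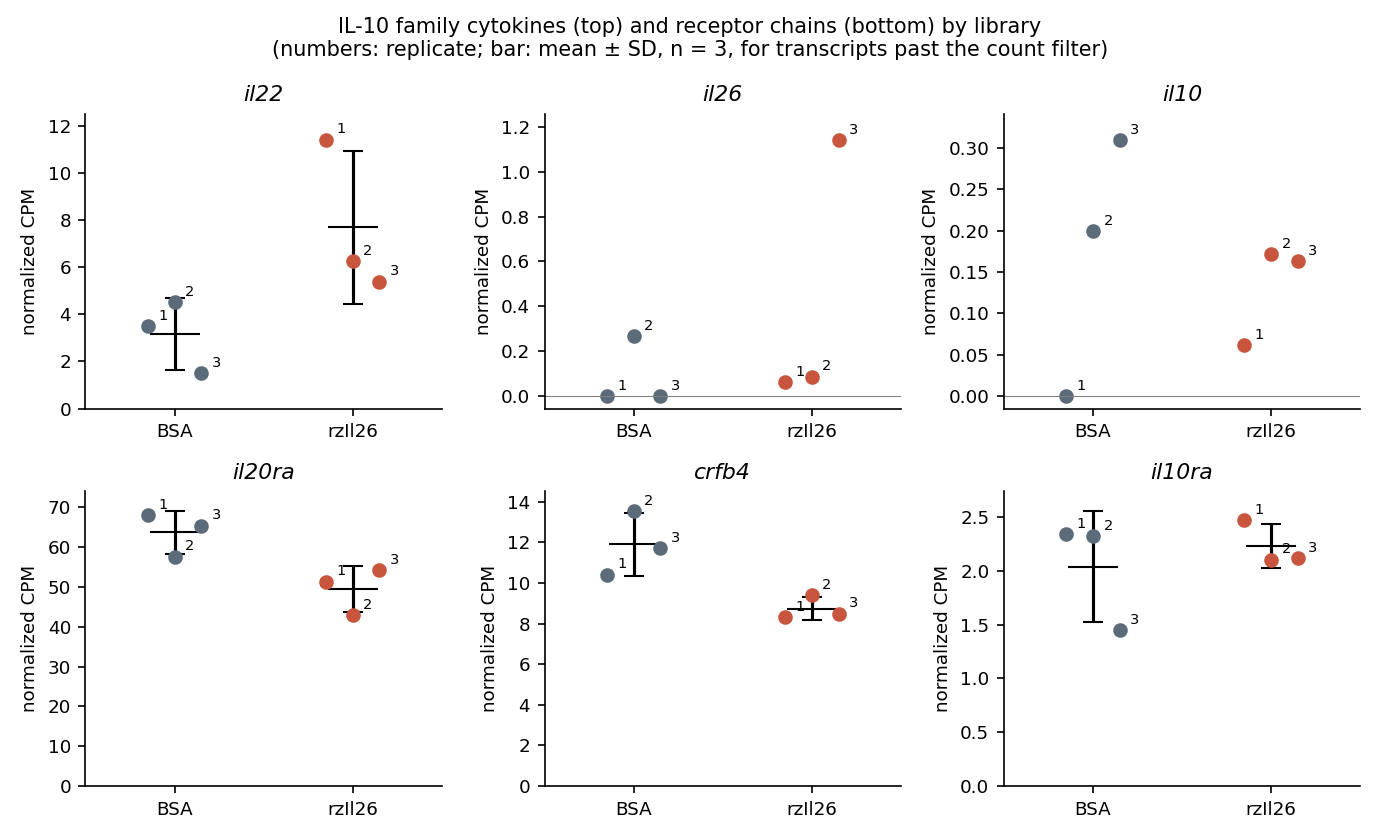
Normalized CPM (counts scaled to library size, vertical axes, linear, each panel with its own scale) of the 3 cytokine and 3 receptor transcripts in the BSA and rzIl26 libraries. Each point is a library with its replicate number, and bars give the mean ± SD (n = 3) for the 4 transcripts past the count filter. The 3 rzIl26 libraries lie above all BSA libraries for *il22* and below them for *il20ra* and *crfb4*, and 1 rzIl26 library stands alone for *il26*.

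The ligand *il22*, an epithelium-directed cytokine, had 67, 68 and 29 counts after BSA (replicates 1 to 3, the order used throughout) and 185, 146 and 99 counts after rzIl26. Scaled to library size by TMM factors as counts per 1e+06 (CPM), these were 3.49, 4.52 and 1.50 CPM after BSA and 11.4, 6.26 and 5.38 CPM after rzIl26. The lowest rzIl26 library lay above the highest BSA library. The means were 3.17 ± 1.53 and 7.69 ± 3.26 CPM (SD, n = 3), and the difference did not pass the threshold (log2 fold change 1.29 ± 0.43 SE, 95% interval 0.29 to 2.28, adjusted p = 0.074). The exact permutation test of the CPM values gave p = 0.1, the smallest two-sided value that 3 libraries against 3 allow. Replicates were spread more widely than counting alone gives, with a coefficient of variation (CV) of 48.5% after BSA and 42.4% after rzIl26, where Poisson counting at these depths gives 13.5% and 8.35%. Of 172 rows with a log2 fold change at least as high as that of *il22*, 124 (72.1%) were called.

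The call for *il22* depended on the method, as the plot of adjusted p-values under each alternative shows. It passed in 4 of 17 alternatives, namely with DESeq2 (1.29, adjusted p = 0.0084), with edgeR's likelihood ratio test (1.28, adjusted p = 0.026, 18.9% of rows), with scaling by library totals alone (1.46, adjusted p = 0.045, 20.6% of rows) and with the replicate number as a term, a fit given in the closing section. It passed in 0 of the 6 fits that each left out 1 library, where its log2 fold change stayed between 0.90 and 1.61 and its adjusted p-value between 0.075 and 0.158. These fits called 6.89%, 9.05% and 9.15% of their rows without BSA replicates 1, 2 and 3, and 16.9%, 7.74% and 12.9% without rzIl26 replicates 1, 2 and 3. The lowest log2 fold change of *il22*, 0.90, came without rzIl26 replicate 1, the library with the most *il22* counts. The next lowest, 0.94, came without BSA replicate 3, the library with the fewest.

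**Figure D2:**
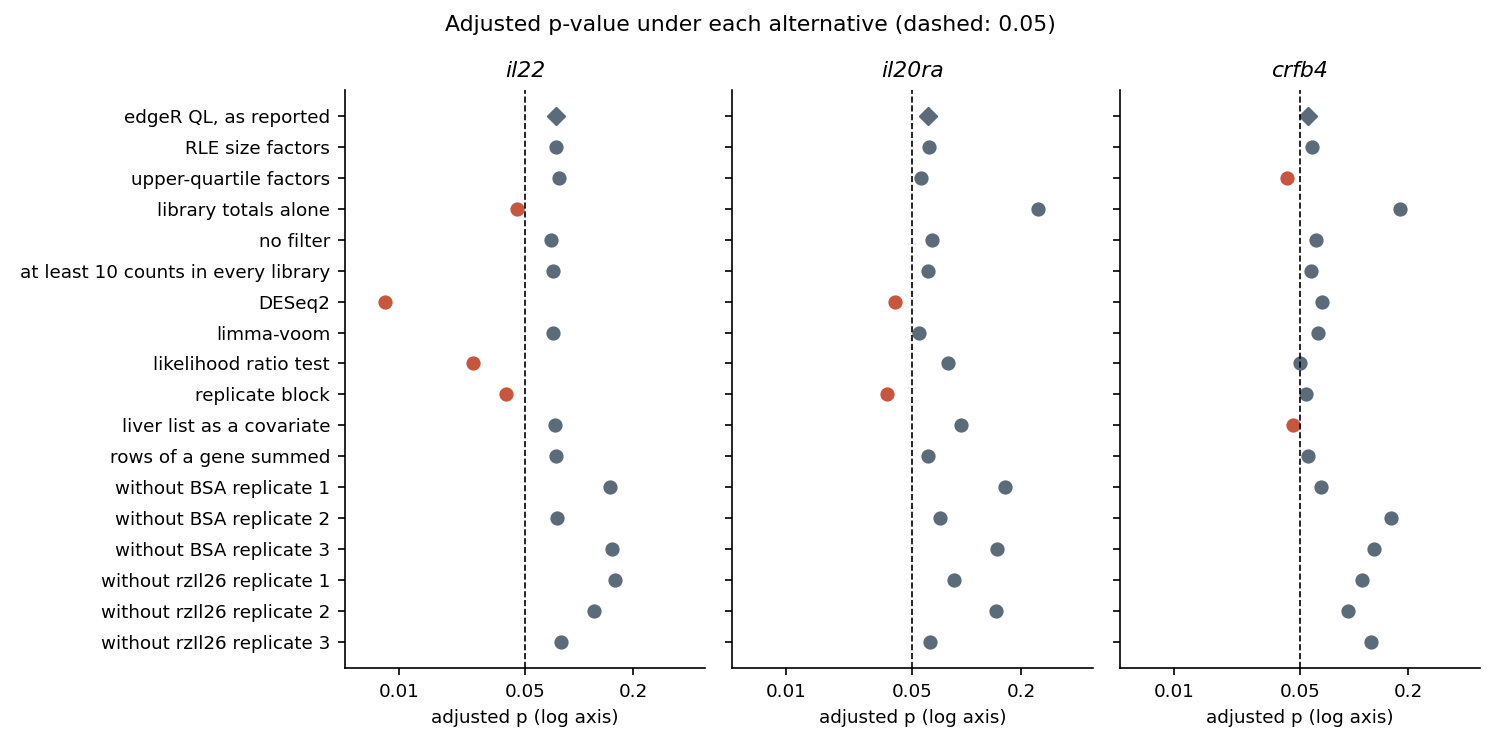
Benjamini-Hochberg adjusted p-values (horizontal log axis, dashed line at 0.05) of *il22*, *il20ra* and *crfb4* in the fit reported here (diamond) and in 17 alternatives (circles, red where under 0.05). The value for *il22* passed in 4 alternatives and those for *il20ra* and *crfb4* in 2 each, none of them a fit without 1 library.

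The transcript of the injected cytokine itself, *il26*, was close to undetected in 5 of the 6 libraries. The BSA libraries held 0, 4 and 0 counts and the rzIl26 libraries 1, 2 and 21. So rzIl26 replicate 3 held 75.0% of the 28 counts, and its count corresponded to 1.14 CPM (exact Poisson interval 0.707 to 1.75, counting error only). The 4 counts of BSA replicate 2 corresponded to 0.266 CPM (interval 0.072 to 0.680), whereas a floor of 3 counts stood at 0.156 and 0.155 CPM in the BSA libraries with 0 counts. Among the 575 rows with 20 to 40 counts in all, 2 rows (0.348%) had at least this share of them in 1 library, *il26* and the hatching enzyme gene *he1.2*, the latter named after its values were seen. The share was taken from *il26* itself, whose counts lie in this window. So *il26* is among these rows by construction, and the percentage is a description. Over the summed counts, 4 after BSA and 24 after rzIl26, the ratio corrected for library size was 5.56 (counting interval 1.91 to 22.04). Without rzIl26 replicate 3 the sums were 4 and 3 and the ratio was 1.02 (0.149 to 6.02). Without BSA replicate 2 the BSA sum was 0, and the ratio was 5.33 against a floor of 3 counts over the group. The lower bound of its counting interval was 4.01, and 21 of the 24 counts still came from rzIl26 replicate 3. The groups overlapped, the exact permutation test gave p = 0.5, and with no filter on low counts edgeR, which then called 13.7% of rows, gave an adjusted p of 0.33. The row counts *il26* RNA, not the injected protein.

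The anti-inflammatory cytokine transcript *il10* had 0, 3 and 6 counts after BSA and 1, 4 and 3 counts after rzIl26. Both groups held about the same sum, 9 and 8 counts, and the ranges of the groups overlapped. The ratio corrected for library size was 0.823 with a counting interval of 0.276 to 2.40, so neither a fall nor a rise within these bounds was detectable at this depth. Without BSA replicate 3, the library with the most *il10* counts, the ratio was 1.58 (0.379 to 9.24). The exact permutation test gave p = 0.8, and the fit without a filter an adjusted p of 0.87 by edgeR.

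Other class II cytokines, a group that also holds the interferons, were almost undetected. Of 14 names listed 10 had a row, and *il22* was the 1 that passed the count filter. Of the 4 names without a row, 2 were synonyms of a listed gene with a row. The type I interferon transcript *ifnphi1* had 0, 1 and 14 counts after BSA and 2, 4 and 4 counts after rzIl26, so that a single BSA library held most of its counts. The *il10* neighbour *il19l* had 1 count in rzIl26 replicate 3 and 0 elsewhere. The transcript *ifnphi2* had 1 count in each of rzIl26 replicates 1 and 2, and *ifnphi3* had 1 count in each of BSA replicates 1 and 3. In the cluster on chromosome 4 that holds *il26* and *il22*, the interferon gamma gene *ifng1* was at 0 in every library and its relative *ifng1r* had 1 count, in rzIl26 replicate 3. The row of *ifnphi4* was at 0 as well. The library with 21 *il26* counts therefore held the highest count of neither *il22* nor *ifnphi1*.

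The receptor chain *il20ra*, whose human counterpart binds IL-26, was the most counted member. It held 3443 counts over the BSA libraries and 2830 over the rzIl26 libraries. By library these were 68.1, 57.6 and 65.4 CPM after BSA and 51.3, 42.9 and 54.2 CPM after rzIl26. In these TMM-scaled values all rzIl26 libraries lay below all BSA libraries, with a gap from 54.2 to 57.6 CPM. The TMM factors ran from 0.92 to 0.98 in the BSA libraries and from 1.05 to 1.07 in the rzIl26 libraries. By library totals alone the groups overlapped. There rzIl26 replicate 3 (997 of 17462732 counts) lay above BSA replicate 2 (868 of 16049823 counts). The log2 fold change had a 95% interval of -0.63 to -0.10 around -0.37, but the adjusted p-value of edgeR's test was 0.061. The replicates were close to each other, with a CV of 8.5% and 11.8%, where counting gives 3.0% and 3.3%. Scaling mattered for this small difference. With library totals alone, which moved the log2 fold changes of all rows by a median of 0.16, that of *il20ra* was -0.20 (adjusted p = 0.25). It passed with DESeq2 (-0.36, adjusted p = 0.040) and with the replicate number as a term, 2 of 17 alternatives, and in 0 of the 6 fits without 1 library (-0.44 to -0.27, adjusted p from 0.063 to 0.163). Of 1633 rows with a log2 fold change at or below that of *il20ra*, 46.3% were called lower. The paper reports the opposite direction by quantitative PCR, a strong rise of *il20ra* in wild-type guts at the same age and time after rzIl26. The cause of this difference was not tested.

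The chain *crfb4* had 200, 204 and 227 counts after BSA and 135, 219 and 156 counts after rzIl26, which scaled to 10.4, 13.5 and 11.7 CPM and to 8.33, 9.39 and 8.48 CPM. As with *il20ra*, no rzIl26 library reached the lowest BSA library in these CPM, but by library totals alone the groups overlapped. There rzIl26 replicate 2 (219 of 22219894 counts) lay above BSA replicate 1 (200 of 20884580 counts). The means were 11.9 ± 1.6 and 8.73 ± 0.58 CPM (SD, n = 3), and the log2 fold change of -0.44 (95% interval -0.75 to -0.13) had an adjusted p-value of 0.056. It passed with upper-quartile factors (-0.47, adjusted p = 0.043, 18.9% of rows called) and with the mean level of the liver markers as a covariate (-0.49, adjusted p = 0.046, 15.5% of rows called). With library totals alone its log2 fold change was -0.28 (adjusted p = 0.18). In the fits without 1 library it ranged from -0.53 to -0.34, with adjusted p-values from 0.065 to 0.161. Of 1200 rows at or below its log2 fold change, 51.8% were called lower.

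The chain *il10ra*, the part of the receptor that is specific for IL-10, showed no detectable difference. It had 45, 35 and 28 counts after BSA and 40, 49 and 39 counts after rzIl26, or 2.34, 2.32 and 1.45 CPM against 2.47, 2.102 and 2.12 CPM. The groups overlapped, and the BSA libraries were spread by the low value of replicate 3. The means were 2.04 ± 0.51 CPM and 2.23 ± 0.21 CPM (SD, n = 3), and the log2 fold change was 0.13 ± 0.24 SE (95% interval -0.43 to 0.70, adjusted p = 0.74). Without BSA replicate 3 the log2 fold change turned to -0.07. At this depth counting gives a CV of 16.7% and 15.3%, and the interval leaves room for a fall to 0.74 or a rise to 1.62 times the BSA level.

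Ratios of counts within a library do not depend on library scaling, although they compare changes and not levels between genes, since transcript lengths were not used. For each 100 *il20ra* counts there were 5.12, 7.83 and 2.29 *il22* counts after BSA, and 22.2, 14.6 and 9.93 after rzIl26. The groups did not overlap, and the mean ratio went from 5.08 ± 2.77 to 15.6 ± 6.21 (SD, n = 3), a difference of 1.71 in the mean log2 ratio (exact permutation test, p = 0.1, the smallest possible). The ratio of *il22* to *crfb4* also separated the groups, with 33.5, 33.3 and 12.8 against 137, 66.7 and 63.5 *il22* counts per 100 *crfb4* counts. So did the ratio of *il22* to *il10ra*, which was 1.49, 1.94 and 1.04 after BSA and 4.63, 2.98 and 2.54 after rzIl26. For the receptor chains there were 6.54, 4.26 and 5.58 *il20ra* counts per *crfb4* count after BSA and 6.16, 4.57 and 6.39 after rzIl26, or 5.46 ± 1.15 and 5.71 ± 0.99 (SD, n = 3). This ratio overlapped between the groups (difference of 0.071 in the mean log2 ratio, exact permutation test, p = 0.7). These are 4 ratios of the same 4 transcripts and not independent results. In TMM-scaled CPM *il22* was already above, and *il20ra* and *crfb4* below, all BSA libraries in every rzIl26 library. The ratios of *il22* to these 2 chains therefore had to separate, with an exact permutation p of 0.1, and add no support.

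**Figure D3:**
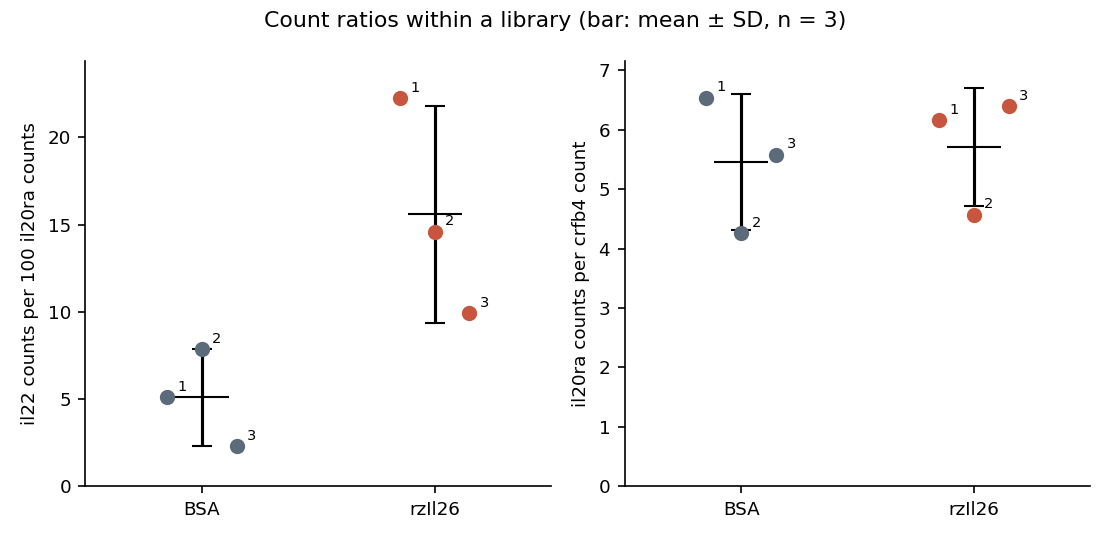
Counts of *il22* per 100 counts of *il20ra* (left) and counts of *il20ra* per count of *crfb4* (right) in each library, on linear axes that start at 0. Points are libraries with their replicate numbers and bars the mean ± SD (n = 3), and the groups separate in the left panel and overlap in the right panel.

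The class II receptor genes were read from a list of 25 names, of which 14 had a row. Of the 11 names without a row, *il22ra1* among them, 6 were synonyms of a listed gene with a row. The count filter was passed by 9, *il20ra*, *crfb4* and *il10ra* among them. Of these 9, 2 were called higher and 0 lower after rzIl26 (22.2%, against 18.9% of all rows), and the median log2 fold change was 0.04, against 0.01 over all rows. Without the members 6 were tested, with the same 2 calls (33.3%). Both calls were tissue factor genes, which share the class II receptor fold but encode the cell-surface trigger of blood clotting rather than a cytokine receptor. The paralog *f3b* had 91, 105 and 91 counts after BSA and 239, 347 and 222 after rzIl26 (log2 fold change 1.35 ± 0.18 SE, adjusted p = 0.0069). The paralog *f3a* had 87, 80 and 63 counts against 129, 191 and 166 (0.95 ± 0.19 SE, adjusted p = 0.017). The call of *f3b* held in all 17 alternatives, while that of *f3a* was lost without BSA replicate 1 (adjusted p = 0.057) or rzIl26 replicate 2 (0.052).

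Among the 7 cytokine receptor chains tested 0 were called by edgeR's quasi-likelihood test, against 18.9% of all rows. Their median log2 fold change was -0.11, against 0.01 over all rows. Before adjustment 3 of them were lower with p under 0.05 by the same test, against 1879 of all 10576 rows. The third of these, beside *il20ra* and *crfb4*, was *ifnlr1*, named for the receptor of lambda interferons, with 352, 222 and 334 counts after BSA and 223, 256 and 234 after rzIl26. Its means were 16.8 ± 1.8 and 12.5 ± 1.4 CPM (SD, n = 3) with a log2 fold change of -0.43 ± 0.13 SE and an adjusted p-value of 0.056, and it passed in 4 alternatives, among them DESeq2 (adjusted p = 0.049). The interferon gamma receptor chains were close to 0, with 0.04 (SE 0.09, adjusted p = 0.79) for *ifngr1*, a value that turned to -0.03 without rzIl26 replicate 3 and to -0.01 without BSA replicate 3. The value for *ifngr2* was -0.11 (SE 0.08, adjusted p = 0.40), which turned to 0.05 with library totals alone. The chain *crfb15* stood at 0.28 ± 0.46 SE (adjusted p = 0.71), a value that turned to -0.09 without BSA replicate 3.

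The rows under the filter were those of *crfb12*, *il22ra2*, *crfb1*, *crfb2* and *ifngr1l*. The chain *crfb12* had 2, 3 and 5 counts after BSA and 11, 8 and 9 after rzIl26, without overlap but too few to test. The transcript *il22ra2*, whose mammalian counterpart is a secreted receptor that binds and blocks IL-22, had 0 counts in the BSA libraries and 1, 3 and 0 in the rzIl26 libraries. The rows of *crfb1*, *crfb2* and *ifngr1l* were at 0 in every library.

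**Figure D4:**
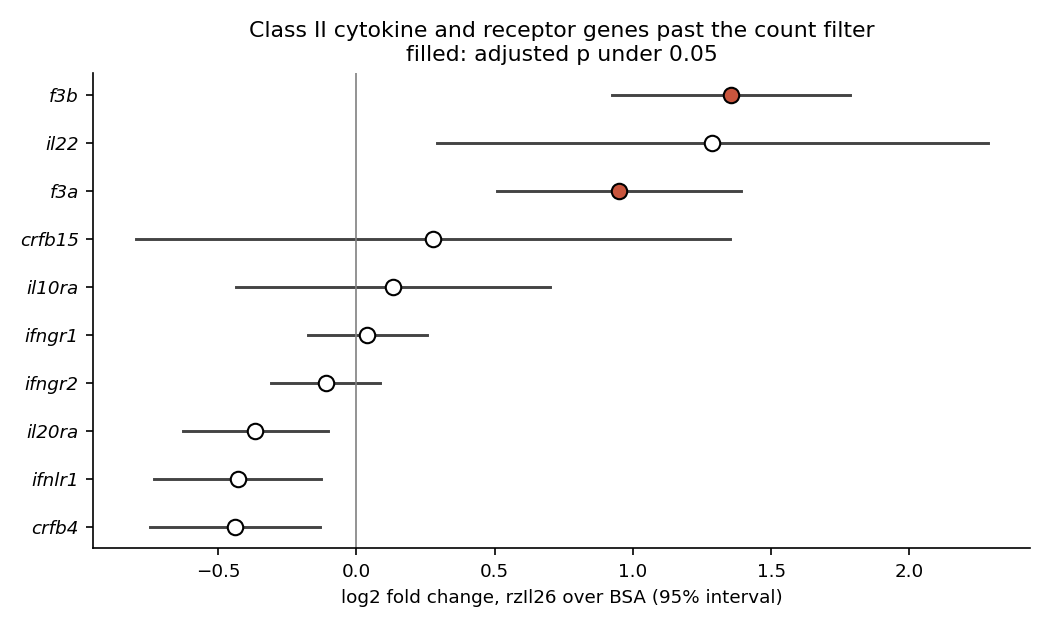
Log2 fold changes (rzIl26 over BSA, horizontal axis) with 95% intervals from edgeR's quasi-likelihood fit for the 10 class II cytokine and receptor genes past the count filter. Filled points passed an adjusted p-value of 0.05, which only the tissue factor genes *f3a* and *f3b* did in this fit, and the intervals of *il22*, *il20ra*, *crfb4* and *ifnlr1* lie on a single side of 0 without adjustment.

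Downstream of the receptors, transcripts of the signalling chain were read from a list of JAK, STAT, SOCS and phosphatase genes. Of 18 tested 5 were called higher and 1 lower (33.3%, against 18.9% of all rows), and the median of the list was 0.11. The feedback inhibitor *socs3a* averaged 192 CPM after BSA and 458 CPM after rzIl26 (log2 fold change 1.25 ± 0.15 SE, adjusted p = 0.0054), and its paralog *socs3b* 67.2 and 124 CPM (0.89 ± 0.18 SE, adjusted p = 0.017). The call of *socs3b* was lost in 3 of the 6 fits without 1 library, those without BSA replicate 1, BSA replicate 3 or rzIl26 replicate 2 (adjusted p up to 0.056). The transcription factor *stat3* rose from 60.8 ± 3.1 to 98.3 ± 14.4 CPM (SD, n = 3), or by 0.69 ± 0.11 SE on the log2 scale (adjusted p = 0.011). The phosphatase *ptpn6*, a brake on JAK signalling in blood cells of mammals, fell from 29.9 ± 2.3 to 17.9 ± 2.5 CPM (SD, n = 3), or -0.74 ± 0.12 SE on the log2 scale (adjusted p = 0.011). The phosphatase *ptpn11b* was called higher (0.48, SE 0.12, adjusted p = 0.038) and lost its call in 6 of 17 alternatives, 5 of them fits without 1 library (adjusted p up to 0.117) and kept only without rzIl26 replicate 1. The remaining call was *socs1a*, named after its values were seen (0.63, SE 0.18, adjusted p = 0.046).

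Of 26 known STAT3 target genes tested, 15 were higher and 1 was lower (61.5%, against 18.9% of all rows), and the median was 0.68 on the log2 scale. This list shares *socs3a*, *socs3b* and *stat3* with the signalling list. The early response factor *junba* rose from 101 ± 20 to 254 ± 58 CPM (SD, n = 3), or by 1.33 ± 0.21 SE (adjusted p = 0.0099). The acute phase gene *saa* had 27, 29 and 20 counts after BSA and 66, 110 and 121 after rzIl26 (1.83 ± 0.28 SE, adjusted p = 0.0099). The lower call was the growth regulator *myca*, with 39.8 CPM after BSA and 16.2 CPM after rzIl26 on average (-1.29 ± 0.10 SE, adjusted p = 0.0031). The calls of *junba*, *saa* and *myca* held in all 17 alternatives. Many of these genes are also targets of other pathways, and STAT3 phosphorylation was not measured here.

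A list of 30 genes was drawn up from mammalian inducers of IL-22, IL-26 or IL-10 and their relatives. Of its 19 members tested 5 were higher and 1 was lower (31.6%, against 18.9% of all rows), and the median was 0.73. The inflammatory cytokine *il1b* rose by 2.21 ± 0.28 SE on the log2 scale (adjusted p = 0.0057), and *tnfb*, a TNF gene, rose by 2.26 ± 0.40 SE, from 1.49 ± 0.71 to 7.13 ± 2.21 CPM (SD, n = 3; adjusted p = 0.012). The NF-kB subunit *rel* rose by 1.09 (SE 0.18, adjusted p = 0.011) and the flagellin receptor gene *tlr5b* by 1.27 (SE 0.22, adjusted p = 0.012), a call lost without BSA replicate 1 (adjusted p = 0.052). The transcription factor *mafa*, a relative of the listed gene *maf*, fell by 0.99 (SE 0.18, adjusted p = 0.013). The gene *maf* itself had no row under that name, so this is not a fall of a known inducer. The row of *rorca*, a counterpart of the mammalian regulator of IL-22-producing lymphocytes, was at 0 in every library. Its paralog *rorcb*, named after its values were seen, had 2.88 ± 0.60 CPM after BSA and 1.05 ± 0.86 CPM after rzIl26 (SD, n = 3), or -1.51 ± 0.49 SE on the log2 scale, with an adjusted p-value of 0.072.

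**Figure D5:**
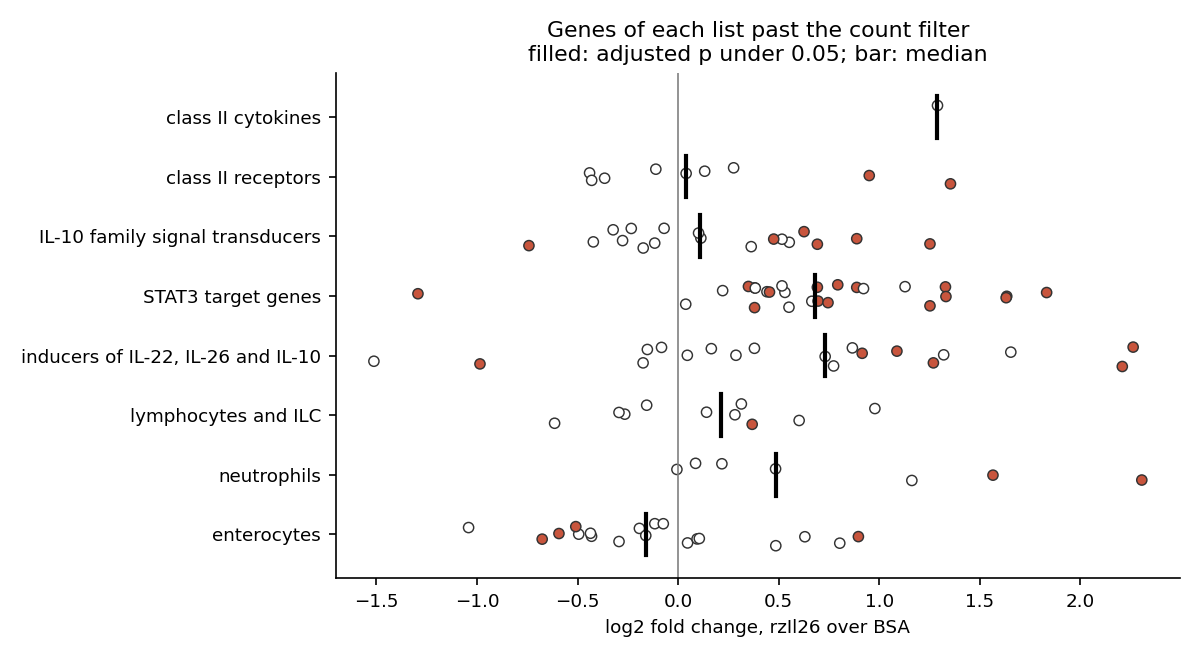
Log2 fold changes (rzIl26 over BSA, horizontal axis) of the genes past the count filter in 8 lists, each point a gene placed with vertical scatter for legibility. Filled points had an adjusted p-value under 0.05 and vertical bars give list medians, which were 0.04 for class II receptors, 0.11 for signal transducers, 0.68 for STAT3 targets and 0.73 for inducers.

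Markers of the cells that could hold these transcripts were set beside them. Of 27 markers of lymphocytes and innate lymphoid cells, the main IL-22 sources in mammals, 26 had a row and 10 passed the filter. Of these 10, 1 was called higher and 0 lower (10.0%, against 18.9% of all rows). The call was *id2a* (0.37, adjusted p = 0.013), a transcription regulator that many other cells express. The rows of *lck*, *tbx21*, *rorca* and *nkl.2* were at 0 in every library. The transcripts *nitr4a* and *nitr9*, which the paper uses as specific markers of innate lymphoid cells, were under the filter and not tested. They held 3 and 3 counts over the BSA libraries and 2 and 0 over the rzIl26 libraries, too few to follow the level of these cells. The mean log2 CPM of the list ran from 1.38 to 1.74 after BSA and from 1.48 to 1.84 after rzIl26, overlapping, while its summed level ran from 118 to 123 CPM and from 143 to 155 CPM. Most of that sum was *id2a* itself (93.9 and 121 CPM on average), and without it the sums overlapped, at 24.9 to 31.4 CPM and 23.8 to 32.9 CPM. The part of these cells in the difference of *il22* was not tested.

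Neutrophil markers as a list separated the groups. Of all single rows tested 39.6% also did, a share that is no baseline for a list mean or sum. Their mean log2 CPM ran from 1.78 to 2.03 after BSA and from 2.62 to 2.95 after rzIl26 over the 7 markers past the filter, and the summed level of all 11 with a row from 43.2 to 50.5 CPM and from 82.9 to 138.7 CPM. Of the 7 tested 2 were called higher (28.6%, against 18.9% of all rows), the matrix protease genes *mmp9* (18.8 and 55.7 CPM on average) and *mmp13a* (log2 fold change 2.31). These carried most of the rise in the sum, which without them ran from 20.8 to 25.56 CPM and from 25.85 to 33.6 CPM, a narrow gap. Most of the sum that remained was *srgn*, whose groups overlapped. It stood at 17.1, 17.5 and 13.2 CPM after BSA and at 15.6, 22.6 and 17.1 CPM after rzIl26. Of the 7 tested, 6 were higher by sign. The neutrophil genes *lyz* (log2 fold change 1.16, adjusted p = 0.061 by edgeR's test) and *npsn* (0.48) were higher without a call. The log2 fold changes of *csf3r* (0.09), *ncf4* (-0.01) and *srgn* (0.22) did not pass either, and *mpx*, the defining myeloperoxidase gene, was near 0 in both groups. General leukocyte markers overlapped, at 3.25 to 3.46 and 3.34 to 3.36. Of 12 tested, 1 was called higher and 1 lower (16.7%, close to the share of all rows). Of the 5 macrophage markers tested 0 were called higher and 1 lower, where 18.9% of all rows were called. The lower call was *lgals9l1* (19.7 CPM after BSA and 13.1 CPM after rzIl26 on average). The summed level of the 12 macrophage markers with a row did not overlap. It ran from 42.9 to 44.9 CPM after BSA and from 32.3 to 39.7 CPM after rzIl26. The mean log2 CPM of the 5 tested ran from 2.62 to 2.91 and from 2.48 to 2.81 and overlapped. The part of these cells in the differences of *il22*, *il20ra* and *crfb4* was not tested.

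The summed level of the enterocyte markers ran from 51410 to 58700 CPM after BSA and from 41050 to 48080 CPM after rzIl26. The chitinase gene *chia.2* (23420 and 14660 CPM on average) carried most of this difference, and without it the sums overlapped, at 28210 to 35770 CPM and 26390 to 32080 CPM. The structural enterocyte genes *vil1* (log2 fold change 0.05), *cdh17* (0.09) and *cldn15la* (-0.07) were near level, while other markers were not. Beside *chia.2*, *rbp2a* (-0.59, adjusted p = 0.0054 by edgeR's test) and *apoa4b.1* (-0.51, adjusted p = 0.011) were called lower. The higher call was *apoa4a* (0.90, adjusted p = 0.027). Before adjustment 6 markers were lower and 2 higher with p under 0.05 by edgeR's test, against 1879 and 1812 of all 10576 rows. The mean log2 CPM of the list ran from 8.21 to 8.24 and from 7.94 to 8.22 and overlapped. Of the 19 tested, 1 was called higher and 3 lower (21.05%, against 18.9% of all rows), and 7 of 19 were above 0. None of the 20 liver markers tested was called (2 higher and 1 lower with p under 0.05 before adjustment), nor were the 16 exocrine pancreas markers (0 and 1), by edgeR's test. With the liver level as a covariate in edgeR the log2 fold change of *il22* was 1.32 (adjusted p = 0.073). In the same fit, which called 15.5% of rows, *il20ra* was at -0.32 (adjusted p = 0.094) and *crfb4* at -0.49 (adjusted p = 0.046). Lysosome-rich enterocytes are among the gut cells in which the paper reports expression of *il20ra* and *il10rb*. Their 12 markers with a row summed to 7221 to 7887 CPM after BSA and 8313 to 10580 CPM after rzIl26. The mean log2 CPM ran from 6.933 to 6.999 and from 6.915 to 7.32 and overlapped. Of the 11 tested, 2 were called higher and 0 lower (18.18%, against 18.9% of all rows). The part of enterocytes of either list in the receptor differences was not tested.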

How the data were processed

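The authors deposited raw whole-number counts per RefSeq transcript in 1 table, 1 column per library. Per the labels, FastQC 0.11.8 and the danRer11 build were used on stranded, paired 100-bp reads; the aligner, counter, annotation release, strand setting and treatment of multimapping reads are not given in the sources used here. Columns were matched to libraries through the labels. Symbols (15776 of 16134 rows) and gene neighbours came from an NCBI RefSeq table of GRCz12tu, and no coordinates are given because the builds differ. Primer sequences came from the study's supplementary list, in which *il10* is spelled li10.

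The analysis used edgeR 4.0.16 under R 4.3.3 (filterByExpr, minimum count 10, TMM, quasi-likelihood test, group as the sole term) and limma 3.58.1. Benjamini-Hochberg adjustment ran over 10576 rows. CPM are TMM-scaled, and log2 CPM of single libraries used a prior count of 2. P-values of the fits set the difference between the groups against the spread between pools of larvae. Permutation tests of single measures were exact and two-sided. Counts of sparse members have exact Poisson intervals, and their ratios exact binomial ones, at 95%, which cover counting error only.

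Members were set by gene identity, not values, but they and the gene lists were chosen with earlier results of these data known. Their counts are therefore descriptions. Named genes were the members, the class II cytokine and receptor genes with a row, at most 5 genes per pathway list with the lowest adjusted p-values, and the 5 rows most correlated with each tested member among those with a mean of at least 50 counts. Cell markers were named after their values were seen. Mean log2 CPM of a list covers its genes past the filter, and summed CPM all its genes with a row. The 17 alternatives changed the scaling (RLE, upper-quartile, library totals), the filter (at least 1 count in some library, or 10 in each), the test (limma-voom, DESeq2 1.42.0, likelihood ratio), the design (replicate block, liver covariate) or the rows (summed per gene), or left out each library.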

Additional observations from a re-analysis of the deposited data

How the results depend on the processing

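The signs of *il22*, *il20ra* and *crfb4* were the same in all 17 alternatives. Their calls were not: *il22* passed with library totals alone (1.46), DESeq2 (1.29) and the likelihood ratio test (1.28), *il20ra* with DESeq2 (-0.36), and *crfb4* with upper-quartile factors (-0.47) and the liver covariate (-0.49); the cause was not tested. Library totals alone moved all log2 fold changes by a median of 0.16 and gave 1783 rows higher and 400 lower. The fit reported here gave 980 and 1015. These fits differ only in the scaling, and the TMM factors ran from 0.92 to 0.98 in the BSA libraries and from 1.05 to 1.07 in the rzIl26 libraries. The scaling therefore differed with the treatment. Why the factors differ between the groups was not tested. Leaving out 1 library gave 339 to 874 rows higher and 398 to 940 lower, with the counts down by over 1.5 times when BSA replicates 1 (339 and 398), 2 (481 and 497) or 3 (453 and 525), or rzIl26 replicate 2 (404 and 420), were left out. In these fits *il22* ran from 0.90 to 1.61, *il20ra* from -0.44 to -0.27, *crfb4* from -0.53 to -0.34 and *il10ra* from -0.071 (without BSA replicate 3) to 0.25. The log2 ratio of *il26* ran from 0.026 (without rzIl26 replicate 3) to 3.09, and that of *il10* from -0.92 (without BSA replicate 1) to 0.66 (without BSA replicate 3). Among uncalled rows the fits without 1 library ran from -0.086 to 0.53 for *crfb15*, -0.033 to 0.090 for *ifngr1*, -0.037 to 0.13 for *gatd3*, -0.039 to 0.32 for *rgs4*, -0.16 to 0.39 for *akt1* and -0.025 to 0.22 for *ncoa2*, and *ifngr2* was 0.051 with library totals alone.

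The groups share replicate numbers, but these are not shown to pair the libraries. The deviations of same-numbered libraries from their group means correlated at 0.31, 0.11 and 0.01, and rzIl26 replicate 3 correlated best with BSA replicate 2 (0.19). With a replicate block 1727 rows (16.3%) were called, and *il22* (1.31, adjusted p = 0.040) and *il20ra* (-0.37, adjusted p = 0.036) passed by edgeR while *crfb4* (-0.44, adjusted p = 0.054) did not.

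For *il26* and *il10* the alternatives that need a fit (other tests, other designs, summed rows and the stricter filter) were not run, since both lie under the filter. Depth limits these transcripts most, with 0 to 21 counts per library, and *il10ra* next with 28 to 49.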

Other observations

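The rows whose log2 CPM followed each tested member most closely over the 6 libraries were listed as a description, since 6 points that share libraries and groups give high values for many rows. For *il22* they were *necap1* (Pearson r = 0.995), *mrpl35*, *hoga1*, *myl9a* and *vtnb* (0.987), and 136 of 8485 rows compared (1.60%) had an r above 0.9. The first, which encodes an endocytosis factor, had 67, 54 and 48 counts after BSA and 84, 94 and 72 after rzIl26, or 0.46 ± 0.21 SE on the log2 scale (adjusted p = 0.16 by edgeR). The last, *vtnb*, encodes a vitronectin and is 1 of the liver markers, and its log2 fold change was 0.44 (SE 0.18, adjusted p = 0.12).

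For *il20ra* the closest rows were *mcrs1* (0.996), *vrk3*, *asb2b*, *maf1b* and *slc25a23b* (0.988), with 379 rows (4.47%) above 0.9. For *crfb4* they were *ciao2a* (0.990), *acmsd*, *aclya*, *ivd* and *srebf2* (0.974), with 147 rows (1.73%) above 0.9. Within the latter set *aclya* encodes the enzyme that makes cytosolic acetyl-CoA, *ivd* an enzyme of leucine breakdown and *srebf2* the regulator of sterol synthesis. Of these, *ivd* was called lower (-0.63, SE 0.11, adjusted p = 0.012), while *aclya* (-0.20, adjusted p = 0.094) and *srebf2* (-0.21, adjusted p = 0.089) did not pass. For *il10ra* the closest rows were *gatd3* (0.979), *rgs4*, *akt1*, *timm13* and *ncoa2* (0.959), with 44 of 8486 rows (0.519%) above 0.9 and 0 of the 5 called in edgeR's test. Nothing on shared function or control is read from these rows.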
